A study of Mus musculus with 12 samples.

Results

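The C/EBP (CCAAT/enhancer-binding protein) family was followed through an siRNA experiment in cultured mouse hepatocytes. The family was taken by gene symbol as Cebpa, Cebpb, Cebpd, Cebpe, Cebpg and Cebpz, 6 of the 55385 gene identifiers in the quantification. Hepatocytes freshly isolated from 3 mice were treated for 48 h with siRNA against Hnf4a (siHnf4a), siRNA against Cebpa (siCebpa), both siRNAs (siHnf4a+siCebpa, the double knockdown) or a control siRNA (siCon). Each of the 3 mice gave 1 library in each of the 4 groups, 12 libraries in all, so the 3 replicates of a group are 3 animals and each animal is its own control. All groups were plated on collagen in Williams' E medium with 10% FBS, 2 mM glutamine, 5% ITS (insulin, transferrin and selenium) and 100 nM dexamethasone, a synthetic glucocorticoid. The labels state neither the amount of each siRNA nor the strain, sex or age of the mice. The knockdowns lower RNA in a whole culture and do not remove the genes.

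C/EBP proteins bind DNA as homodimers or heterodimers through a basic leucine zipper (bZIP), in which a basic stretch reads the DNA and a zipper of leucines pairs with a partner. C/EBPA is the member best known for the differentiated hepatocyte, where it supports genes of glucose, urea and plasma protein metabolism. C/EBPB and C/EBPD are known for the acute phase response to inflammation and for induction by glucocorticoids, and C/EBPB is made as activating and inhibitory protein forms from 1 mRNA, which RNA levels cannot tell apart. C/EBPG lacks a strong activation domain and works as a dimer partner of other C/EBP and ATF proteins. C/EBPE is known for the maturation of granulocytes. Cebpz shares the family's symbol but encodes a CCAAT-binding nucleolar protein without a bZIP domain.

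On GRCm38, Cebpa (ENSMUSG00000034957.10) lies on chromosome 7 from 35119293 to 35121928 on the plus strand, and Cebpg (ENSMUSG00000056216.9) lies 62719 bp away on the same chromosome, from 35046422 to 35056573 on the minus strand. Cebpb (ENSMUSG00000056501.3) is a gene of 1 exon on chromosome 2, from 167688915 to 167690418 on the plus strand. Cebpd (ENSMUSG00000071637.5) lies on chromosome 16 from 15887286 to 15891031 on the plus strand. Cebpe (ENSMUSG00000052435.7) lies on chromosome 14 from 54710360 to 54712174 on the minus strand, and Cebpz (ENSMUSG00000024081.9) on chromosome 17 from 78919006 to 78937066 on the minus strand. Genes on the opposite strand overlap 5 of the 6 members in the annotation. They are Gm45091 at Cebpa, Tmem189 at Cebpb, Spidr at Cebpd, Gm45095 at Cebpg and Cebpzos at Cebpz. No source used here says whether the quantification used strand, so reads of such a pair may not be told apart.

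The proximal promoters, the stretches just upstream of the start of transcription, are shown for Cebpa, Cebpb and Cebpg. These were the members with a sequence in the promoter set used. Each is the 250 bases upstream of the RefSeq start site on GRCm38.p6, 5′ to 3′ on the gene's own strand, and 3 of the 6 members were matched. Capitals mark matches on either strand to TTGCG, a stretch within the C/EBP palindrome, to TGACG, the half-site of the cAMP response element (CRE), to the CCAAT box, and to TATAAA. Other forms of the C/EBP site were not searched, so an unmarked window may still hold one. In order, the positions are chr7:35119043-35119292 (plus strand), chr2:167688665-167688914 (plus strand) and chr7:35056567-35056816 (minus strand).
Cebpa: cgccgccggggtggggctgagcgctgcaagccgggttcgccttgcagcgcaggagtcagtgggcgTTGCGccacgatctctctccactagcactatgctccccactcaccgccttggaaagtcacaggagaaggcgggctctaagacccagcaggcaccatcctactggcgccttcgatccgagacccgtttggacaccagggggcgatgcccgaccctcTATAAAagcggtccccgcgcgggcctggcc
Cebpb: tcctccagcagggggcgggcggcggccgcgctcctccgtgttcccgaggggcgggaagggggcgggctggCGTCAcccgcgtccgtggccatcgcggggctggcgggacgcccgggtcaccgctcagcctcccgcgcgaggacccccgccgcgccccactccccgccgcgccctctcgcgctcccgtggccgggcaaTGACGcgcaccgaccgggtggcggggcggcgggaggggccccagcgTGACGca
Cebpg: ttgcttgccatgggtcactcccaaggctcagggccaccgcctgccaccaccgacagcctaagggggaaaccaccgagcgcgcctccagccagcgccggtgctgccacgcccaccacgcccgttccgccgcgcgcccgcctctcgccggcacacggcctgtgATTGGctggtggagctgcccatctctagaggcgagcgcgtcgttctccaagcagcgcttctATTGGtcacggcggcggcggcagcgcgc

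Counted upstream from the start, Cebpa held a TTGCG from −185 to −181 and a TATAAA from −30 to −25. Cebpb held 3 CRE half-sites, at −180 to −176 on the opposite strand and at −53 to −49 and −7 to −3 on its own strand. Cebpg held 2 CCAAT boxes on the opposite strand, at −89 to −85 and −28 to −24. Among the 32817 mouse promoters of the same length, 14.5% held TTGCG, 17.7% TGACG, 33.8% CCAAT and 12.4% TATAAA. The HNF4 site CAAAGNNCA, found in 5.49% of promoters, had no match in these 3 windows. The windows were rich in G and C, at 66.4% in Cebpa, 81.6% in Cebpb and 70.8% in Cebpg, against a median of 52.4% over all promoters.

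Library depth was even, at 22453445 to 25008195 estimated counts, and 14081 to 14459 genes had at least 10 counts. The Hnf4a siRNA lowered its target, which encodes a nuclear receptor of hepatocytes. Hnf4a averaged 54.1 ± 6.80 CPM (counts scaled to library size) in siHnf4a, 211 ± 74.0 in siCebpa, 35.9 ± 3.67 in the double knockdown and 230 ± 78.0 in siCon (SD, n = 3 each). The summed level of 9 hepatocyte markers was 9391 to 14160 TPM (scaled to transcript length and library size) in siHnf4a, 19645 to 23722 in siCebpa, 7148 to 10658 in the double knockdown and 22713 to 26827 in siCon. Most of that difference is Trf, transferrin, at 4093 ± 416, 13452 ± 1662, 3618 ± 784 and 16872 ± 3539 TPM in the same order (SD, n = 3 each). The sum of the other 8, looked at after the values were seen, spanned 5029 to 9857 TPM for siHnf4a and 5789 to 11908 TPM for siCebpa. It spanned 3699 to 6945 TPM for both siRNAs together and 6404 to 9367 TPM for siCon, so that every knockdown range overlapped siCon. Within each mouse, however, the sum was lower in the double knockdown than in siCon. The values of mice 1 to 3 were 6945 against 9367, 4357 against 8202 and 3699 against 6404 TPM. For siHnf4a and for siCebpa the direction against siCon differed between mice. Most of the sum of these 8 was in turn Alb, albumin. Alb averaged 6495, 6142, 4167 and 6133 TPM in siHnf4a, siCebpa, the double knockdown and siCon. The sum averaged 8082, 7979, 5001 and 7991 TPM in the same order. Among the markers of other liver cells, the summed level of 13 Kupffer cell and macrophage genes was 353 to 560 TPM in the 4 libraries of mouse 1 and 71.2 to 171 TPM in the 8 libraries of mice 2 and 3. Cd68, a lysosomal membrane glycoprotein gene, made up nearly all of it in a split added after the values were seen, at 338 to 551 TPM in mouse 1 and 61.5 to 168 TPM in mice 2 and 3. The other 12 together were at 4.56 to 15.2 TPM in mouse 1 and 3.39 to 25.8 TPM in mice 2 and 3, and overlapped between mice. Within each mouse, the sum of these 12 was lower in every knockdown group than in siCon. The highest knockdown values of mice 1 to 3 were 8.64, 4.34 and 11.9 TPM, against 15.2, 7.95 and 25.8 TPM in siCon. These sums were not tested. In these bulk cultures fewer cells of a type and less RNA per cell cannot be told apart.

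Of the 6 members, 5 were expressed and Cebpb was the most abundant in every group. TPM is corrected for transcript length and so allows levels of different genes to be compared. Cebpb averaged 292 ± 71.1 TPM in siHnf4a, 406 ± 56.9 in siCebpa, 334 ± 84.5 in the double knockdown and 437 ± 74.2 in siCon (SD, n = 3 each). In siCon the order of levels was Cebpb, Cebpa (114 ± 11.8 TPM), Cebpg (51.2 ± 6.39), Cebpz (35.9 ± 4.45) and Cebpd (32.4 ± 0.881), and only Cebpz and Cebpd overlapped as neighbours in that order. The siHnf4a libraries had the same order with no overlap. In siCebpa the order was Cebpb, Cebpg, Cebpd, Cebpz and Cebpa, with Cebpg overlapping Cebpd and Cebpd overlapping Cebpz. In the double knockdown it was Cebpb, Cebpa, Cebpg, Cebpd and Cebpz, where Cebpd overlapped both Cebpg and Cebpz.

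**Figure D1:**
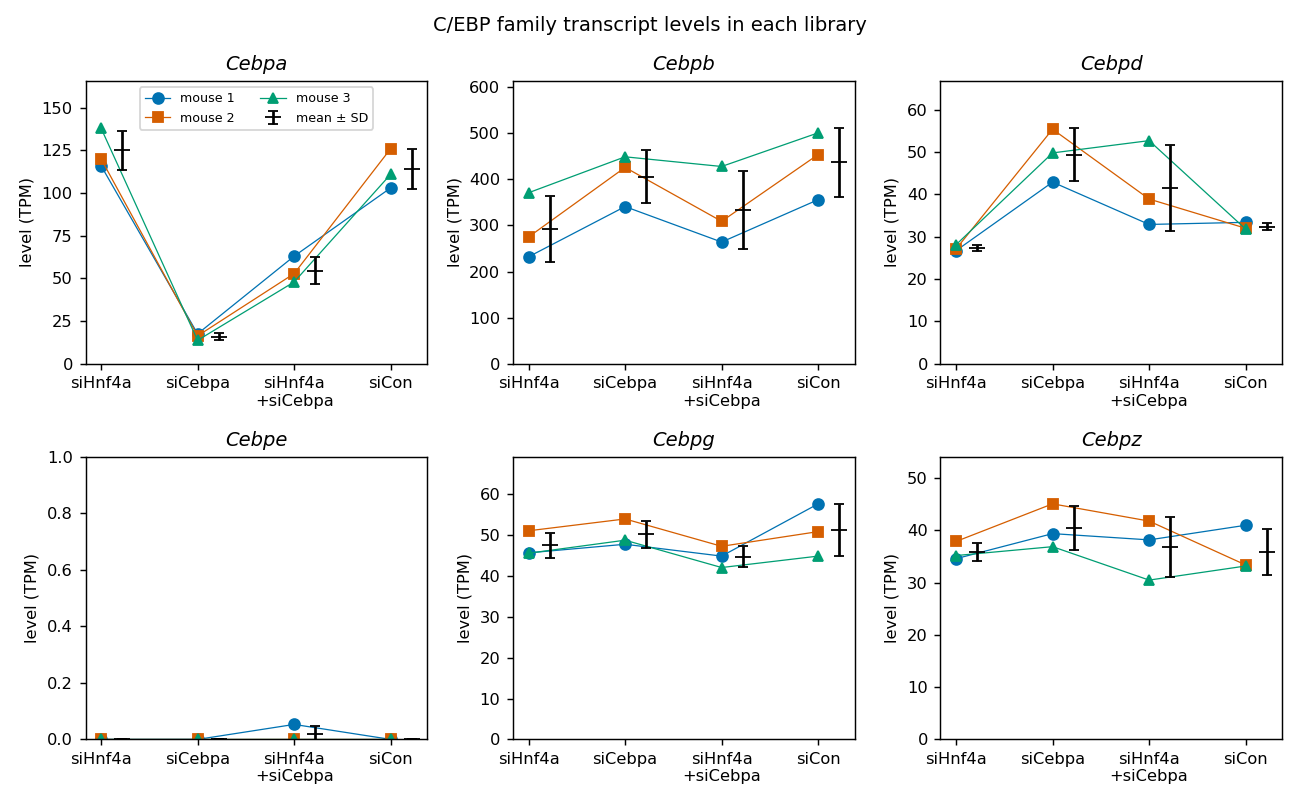
Level of each family member in TPM (vertical axes, each starting at 0) in the 4 groups (horizontal axes); symbols joined by thin lines are the 3 mice and bars are the mean ± SD of 3 libraries. Cebpa is lowest in siCebpa (13.7 to 17.5 TPM) and intermediate in the double knockdown (47.9 to 63.0 TPM), while the 3 mice keep their order for Cebpb in all 4 groups.

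Cebpe, the granulocyte member, had 1 count in all 12 libraries together, in the double knockdown of mouse 1 (0.0530 TPM), and 0 in the other 11. A library with no count allows a level of up to 0.119 to 0.133 CPM (3 counts), for counting error only. Cebpe did not pass the filter on low counts and was not tested. The 10 granulocyte markers, none of which passed that filter, summed to 0.552 to 4.78 TPM per library.

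The test of differences was edgeR's quasi-likelihood test on the counts with 1 mean per group, a log2 fold change (± SE) as the measure, and Benjamini-Hochberg adjustment over all 15090 genes tested. A gene was called at an adjusted p under 0.05. A second fit added the mouse as a block, which compares the groups within each animal. DESeq2, another test of counts, called 2753, 1274 and 2683 genes in siHnf4a, siCebpa and the double knockdown against siCon. Some counts below are at an unadjusted p under 0.05. The share of all genes at that level was not computed, so those counts have no background. The plot of the differences from control siRNA shows the fits with and without the block.

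**Figure D2:**
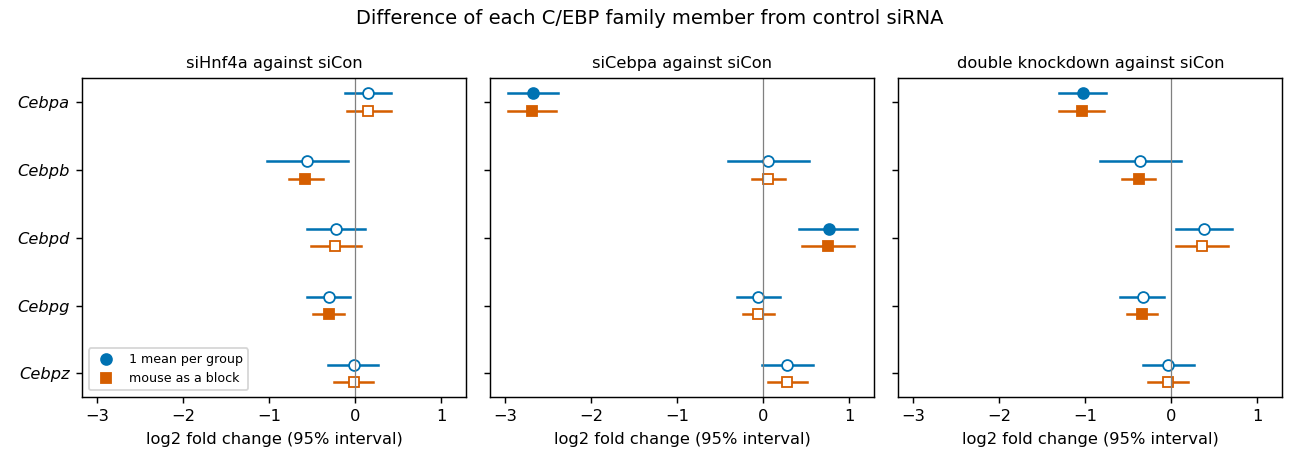
Log2 fold change against siCon (horizontal axes) of the 5 members tested (rows) in siHnf4a, siCebpa and the double knockdown; circles are the fit with 1 mean per group, squares the fit with mouse as a block, lines 95% intervals, and filled symbols an adjusted p under 0.05. Cebpa is at −2.68 with siCebpa and −1.03 in the double knockdown, and the intervals of Cebpb are narrower with the block.

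Cebpa, the target of 1 of the siRNAs, was at 17.5, 16.3 and 13.7 TPM in siCebpa of mice 1 to 3, against 103, 126 and 111 TPM in siCon. The groups did not overlap, and the siCebpa mean was 15.6% of that of siCon in CPM. The fall of 2.68 on the log2 scale (log2 fold change −2.68 ± 0.13, edgeR adjusted p = 7.05e-06) ranked 1 of 15090 genes by p-value. In the double knockdown Cebpa was at 63.0, 52.8 and 47.9 TPM, also below all siCon libraries, with a mean of 48.8% of siCon in CPM (−1.03 ± 0.12, edgeR adjusted p = 0.000441). With siHnf4a alone it was at 116, 120 and 138 TPM, which overlapped siCon (0.15 ± 0.12, 95% interval −0.12 to 0.42, edgeR adjusted p = 0.453).

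The same Cebpa siRNA target thus stood at 3.14 times its siCebpa level in the double knockdown (1.65 ± 0.13, edgeR adjusted p = 5.11e-05), and each mouse showed it, with log2 ratios of 1.70, 1.55 and 1.70. Against siHnf4a, the double knockdown had 43.9% of the Cebpa level (−1.19 ± 0.12, edgeR adjusted p = 0.0188), lower in 3 of 3 mice. Cebpa was the 1 gene called in that comparison, 0.00663% of the genes tested. That call was lost, with the value between −1.32 and −1.12, when siHnf4a replicate 1, 2 or 3 or replicate 2 or 3 of the double knockdown was left out. It was also lost (adjusted p = 0.218) in a fit of those 2 groups only.

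The interaction compares the effect of the Cebpa siRNA with the Hnf4a siRNA present and with it absent. For Cebpa it was 1.50 ± 0.18 log2 units (95% interval 1.11 to 1.88, edgeR adjusted p = 0.0131), 1 of the 13 genes (0.0861%) called. The difference with Cebpa siRNA added was −1.19 log2 units on top of siHnf4a, and −2.68 on top of the control siRNA. The call was lost, at an adjusted p of up to 0.086, without siHnf4a replicate 1 or 2, replicate 1 or 2 of the double knockdown, or siCon replicate 2 or 3, while the value stayed between 1.38 and 1.59. The other 4 members tested had interactions between −0.30 (Cebpz) and 0.15 (Cebpb), and none was called.

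Between the single knockdowns, siHnf4a and siCebpa, Cebpa differed by 2.84 ± 0.13 (edgeR adjusted p = 2.09e-06).

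Cebpb, the most abundant member, was lower than in siCon in every mouse of both groups that had received Hnf4a siRNA. It was at 232, 275 and 371 TPM in siHnf4a, 264, 309 and 428 TPM in the double knockdown and 356, 454 and 501 TPM in siCon of mice 1 to 3. Mouse 1 was lowest and mouse 3 highest in each of the 4 groups, and the ranges of the groups overlapped. With 1 mean per group the difference from siCon was not called in siHnf4a (−0.56 ± 0.21, edgeR adjusted p = 0.105) or in the double knockdown (−0.36 ± 0.21, edgeR adjusted p = 0.304). With mouse as a block, where 30.0% of genes were called in siHnf4a and 29.5% in the double knockdown, Cebpb was among them (−0.58 ± 0.09, adjusted p = 0.000758, and −0.38 ± 0.09, adjusted p = 0.00803). The log2 ratios to siCon in the 3 mice were −0.59, −0.70 and −0.44 in siHnf4a and −0.43, −0.54 and −0.17 in the double knockdown.

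In siCebpa, Cebpb was at 341, 426 and 449 TPM and overlapped siCon (0.06 ± 0.21, 95% interval −0.41 to 0.53, edgeR adjusted p = 0.914), and with mouse as a block the interval was −0.13 to 0.25. On the TPM scale the value was −0.10, where the median of all genes was −0.12. The double knockdown had less Cebpb than siCebpa in the fit with the block (−0.44 ± 0.09, adjusted p = 0.00399, 27.3% of genes called), and so had siHnf4a (−0.64 ± 0.09, adjusted p = 0.000446, 31.2% of genes called). With 1 mean per group neither was called, at −0.42 ± 0.21 (edgeR adjusted p = 0.236) and −0.62 ± 0.21 (edgeR adjusted p = 0.0714). Tmem189, which overlaps Cebpb on the opposite strand, had 715 to 1834 counts per library, against 5577 to 10806 for Cebpb, and did not differ from siCon in siHnf4a (−0.17 ± 0.28, edgeR adjusted p = 0.739).

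In the fit with 1 mean per group, Cebpd was the member other than Cebpa with a call against siCon. It was at 42.9, 55.4 and 49.8 TPM in siCebpa, against 33.4, 32.0 and 31.8 TPM in siCon, so that every siCebpa library lay above every siCon library. The level rose 1.69-fold (0.76 ± 0.15, edgeR adjusted p = 0.0223), with log2 ratios of 0.50, 0.93 and 0.82 in the 3 mice. With mouse as a block the value was 0.75 ± 0.13 (adjusted p = 0.00466). The call was lost when siCebpa replicate 2 or 3 or siCon replicate 2 or 3 was left out (0.67 to 0.84 over all 6 omissions, adjusted p up to 0.101), in a fit of the 2 groups only, and on the TPM scale (0.59, with the median of all genes at −0.12).

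In siHnf4a, Cebpd was at 26.7, 27.1 and 28.1 TPM, below all siCon libraries, but the difference was not called (−0.22 ± 0.15, edgeR adjusted p = 0.367). It differed between siHnf4a and siCebpa by −0.98 ± 0.15 (edgeR adjusted p = 0.00204), a call kept in every alternative fit and omission tried. In the double knockdown it was at 32.9, 38.9 and 52.7 TPM, a range wider than in the other groups. There mouse 1 was level with its siCon library (log2 ratio −0.02), mouse 2 at 0.30 and mouse 3 at 0.78, and the difference from siCon was not called (0.38 ± 0.15, edgeR adjusted p = 0.122) except without replicate 1 (0.51, adjusted p = 0.0394). Against siHnf4a it was 0.60 ± 0.15, higher in 3 of 3 mice and 18th of 15090 genes by p-value, but with an adjusted p of 1 by edgeR. Spidr, on the opposite strand at Cebpd, had 250 to 371 counts per library and was near siCon in siCebpa (−0.01 ± 0.14, edgeR adjusted p = 0.979).

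Cebpg, the dimer partner, was at 70.5, 73.3 and 60.8 CPM in siHnf4a, 71.5, 73.0 and 56.3 CPM in the double knockdown and 93.3, 79.3 and 80.4 CPM in siCon. In CPM both groups with Hnf4a siRNA lay below siCon without overlap. The differences were −0.31 ± 0.11 in siHnf4a (edgeR adjusted p = 0.1) and −0.33 ± 0.11 in the double knockdown (edgeR adjusted p = 0.078), called only with mouse as a block (adjusted p = 0.0149 and 0.00968). On the TPM scale, which divides by the effective length of the transcripts assigned, they were −0.10 and −0.18 and not called. Cebpg was at 81.4, 85.0 and 76.4 CPM in siCebpa and near siCon (−0.06 ± 0.11, 95% interval −0.31 to 0.19, edgeR adjusted p = 0.824). The neighbour Pepd, a peptidase gene 1713 bp from Cebpg, had −0.29 ± 0.11 in siHnf4a (edgeR adjusted p = 0.0983, and 0.0135 with mouse as a block).

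Cebpz, the nucleolar member, was at 34.6, 37.9 and 35.2 TPM in siHnf4a, 39.4, 45.1 and 36.9 in siCebpa, 38.2, 41.8 and 30.5 in the double knockdown and 41.0, 33.4 and 33.2 in siCon. All groups overlapped siCon. The log2 fold changes against siCon were −0.02 ± 0.13, 0.28 ± 0.13 and −0.04 ± 0.13, with edgeR adjusted p of 0.943, 0.269 and 0.88. Its overlapping partner Cebpzos, the opposite strand gene, was at 0.46 in siHnf4a (edgeR adjusted p = 0.107), 0.47 in siCebpa (0.154) and 0.23 in the double knockdown (0.429). With mouse as a block Cebpzos was called in siHnf4a (0.47, adjusted p = 0.0177) and siCebpa (0.47, adjusted p = 0.0296), and not in the double knockdown (adjusted p = 0.211). Between groups, Cebpz and Cebpg were each called lower in siHnf4a and in the double knockdown than in siCebpa only with mouse as a block. There Cebpz was at −0.30 (adjusted p = 0.0483) and −0.33 (adjusted p = 0.0386), and Cebpg at −0.25 (adjusted p = 0.0371) and −0.28 (adjusted p = 0.0258). With 1 mean per group the values were −0.30 and −0.32 for Cebpz and −0.25 and −0.27 for Cebpg. Each of these was lower in 3 of 3 mice.

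Counted over the 5 members tested, 0 were called in siHnf4a against siCon, where edgeR called 14.5% of all genes. Of these 5, 2 had an unadjusted p under 0.05, DESeq2 and limma on TPM called 0, and the block called 2, where it called 30.0% of all genes. In siCebpa 2 were called (Cebpa lower and Cebpd higher), with 4.67% of all genes called. In the double knockdown 1 was called (Cebpa) against a background of 14.0%, and 3 with the block against 29.5%. Between the double knockdown and siCebpa the count was 1 (13.0% of genes), and 4 with the block (27.3%). Between siHnf4a and siCebpa it was 2 (16.2%), and 5 with the block (31.2%). The 2 called with the block in siHnf4a were Cebpb and Cebpg. Cebpa, an siRNA target, is in each of the other edgeR counts given here, with 1 mean per group or with the block. The comparisons share control libraries, and their values stand side by side as measured.

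The summed family level was 454 to 617 TPM in siHnf4a, 489 to 599 in siCebpa, 443 to 601 in the double knockdown and 591 to 723 in siCon. The plot of summed levels shows that Cebpb made up more than any other member in each library. Its share was 54.9 ± 4.67% in siHnf4a, 72.1 ± 2.70% in siCebpa, 64.6 ± 5.94% in the double knockdown and 64.9 ± 4.59% in siCon. Cebpa made up 23.8 ± 1.62%, 2.86 ± 0.658%, 11.0 ± 3.13% and 17.0 ± 1.42% in the same groups (SD, n = 3 each). Cebpd made up 5.24 ± 0.666%, 8.79 ± 0.481%, 8.04 ± 0.680% and 4.88 ± 0.674%. Its share in both groups with Cebpa siRNA lay above that in siCon in every library. The total includes the siRNA target Cebpa, so a share can rise without a higher level. In mouse 1 Cebpd was at 32.9 TPM in the double knockdown and 33.4 TPM in siCon, with shares of 7.42% and 5.65%.

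**Figure D3:**
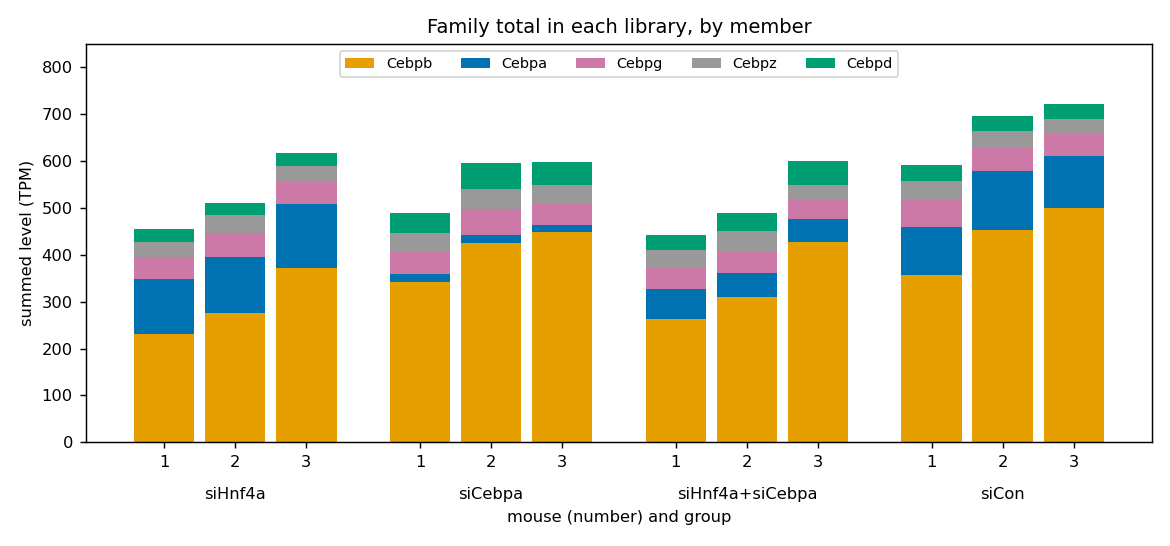
Level summed over the family in TPM (vertical axis from 0) for each library, grouped by siRNA and numbered by mouse, with a colour for each member; Cebpe is too low to be seen. The Cebpa segment is thinnest in siCebpa, at 2.28 to 3.58% of the sum, and Cebpb is the largest segment in all 12 libraries.

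The ratio of Cebpb to Cebpa, the acute phase member to the member of the differentiated hepatocyte, was 2.00, 2.29 and 2.69 in siHnf4a, 19.5, 26.2 and 32.9 in siCebpa, 4.19, 5.85 and 8.93 in the double knockdown and 3.45, 3.59 and 4.50 in siCon of mice 1 to 3. All siHnf4a libraries lay below siCon and all siCebpa libraries above it, and the double knockdown overlapped siCon. On the log2 scale the mean difference from siCon was −0.73 for siHnf4a, 2.75 for siCebpa and 0.66 for both siRNAs together. A two-sided exact permutation test that did not pair the mice gave p = 0.1, 0.1 and 0.2. The smallest p that 3 against 3 allows in it is 0.1. Within each mouse the double knockdown had a higher ratio than siCon. Cebpa is an siRNA target and the denominator, so a fall in Cebpa raises the ratio without any change in Cebpb. In siCebpa the log2 fold changes were −2.68 for Cebpa and 0.06 for Cebpb, and in the double knockdown −1.03 and −0.36. The ratios of both groups with Cebpa siRNA are thus not a result apart from the knockdown.

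**Figure D4:**
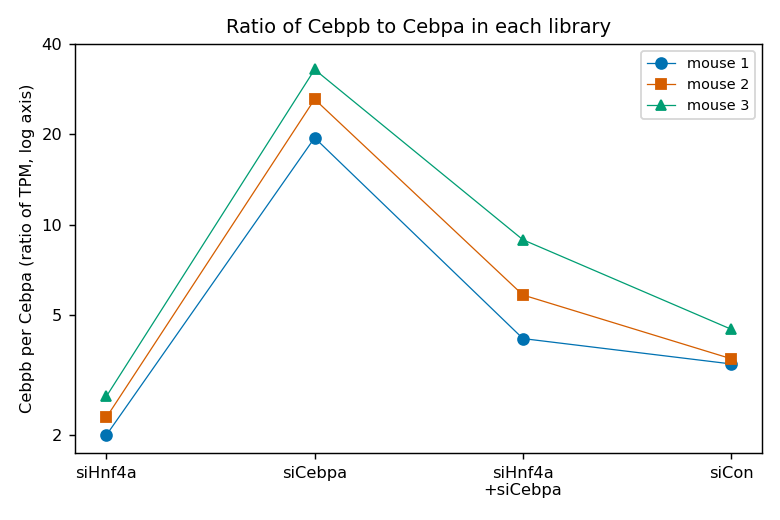
Ratio of Cebpb to Cebpa TPM (vertical log axis) in the 4 groups; symbols joined by thin lines are the 3 mice. The siCebpa libraries sit at 19.5 to 32.9 and the siHnf4a libraries at 2.00 to 2.69, above and below the siCon libraries at 3.45 to 4.50.

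Genes whose log2 CPM over the 12 libraries followed a member most closely were sought among 9040 genes with a mean of at least 10 CPM. Cebpa was most like Npas2 (Pearson r = 0.966), 2310022B05Rik (0.963), Cbx3, Ppil4 and Zkscan1. Cebpb was most like Srebf2 (r = 0.974), Cndp2 (0.971), Cdk5rap2, Fasn (0.958) and Mcph1. Cebpd was most like Txnl4a (r = 0.917), Npm3, Ubb, Tomm22 and Tsc1, Cebpg most like Fem1c (0.940), Cnot7, Slc38a2, Glce and Zfp113, and Cebpz most like Adamts1 (0.955), Timm8a1, Gnl3 (0.935), Taf1a and Zfp593. The points share their mice and groups, and the highest of 9040 values is high by selection, so these are descriptions without a test.

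The other bZIP factors, with which C/EBP proteins share their fold and in part dimerize, were counted in the same fits. Of 42 listed, 40 were tested. In siHnf4a 3 were higher (7.24% of all genes were) and 2 lower (7.29%), in siCebpa 0 higher (2.94%) and 4 lower (1.72%), and in the double knockdown 4 higher (6.90%) and 2 lower (7.13%). With mouse as a block the calls in either direction were 16, 9 and 12 of 40, where 30.0%, 16.8% and 29.5% of all genes were called. The median log2 fold change was −0.03, −0.02 and 0.00, against 0.00 over all genes in each comparison. Creb3l3, a membrane-bound factor of liver lipid metabolism, was at 8.04 ± 1.34 TPM in siHnf4a, 21.4 ± 1.52 in siCebpa, 5.02 ± 1.29 in the double knockdown and 46.2 ± 9.24 in siCon (−2.30 ± 0.22, −0.86 ± 0.21 and −3.12 ± 0.23, edgeR adjusted p = 0.000106, 0.0418 and 2.33e-05). Bach1, a repressor of oxidative stress genes, rose in siHnf4a (1.10 ± 0.17, edgeR adjusted p = 0.00167) and in the double knockdown (1.13 ± 0.17, adjusted p = 0.00138), as did Crem, the cAMP response modulator (0.75 ± 0.09 and 0.70 ± 0.09). Nfe2l2 (NRF2), the activator of antioxidant genes, was higher in siHnf4a (0.50 ± 0.12, edgeR adjusted p = 0.0191) and lower in siCebpa (−0.49 ± 0.12, adjusted p = 0.0458), where Fosl2 (−0.49) and Atf7 (−0.44) were lower too. Leaving out each of the 6 libraries compared in turn ended the call of Creb3l3 in siCebpa in 5 omissions (adjusted p up to 0.177), those of Nfe2l2 in 4 (siHnf4a, up to 0.0841) and 5 (siCebpa, up to 0.165), of Fosl2 in 4 and of Atf7 in 3 (each up to 0.0983).

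**Figure D5:**
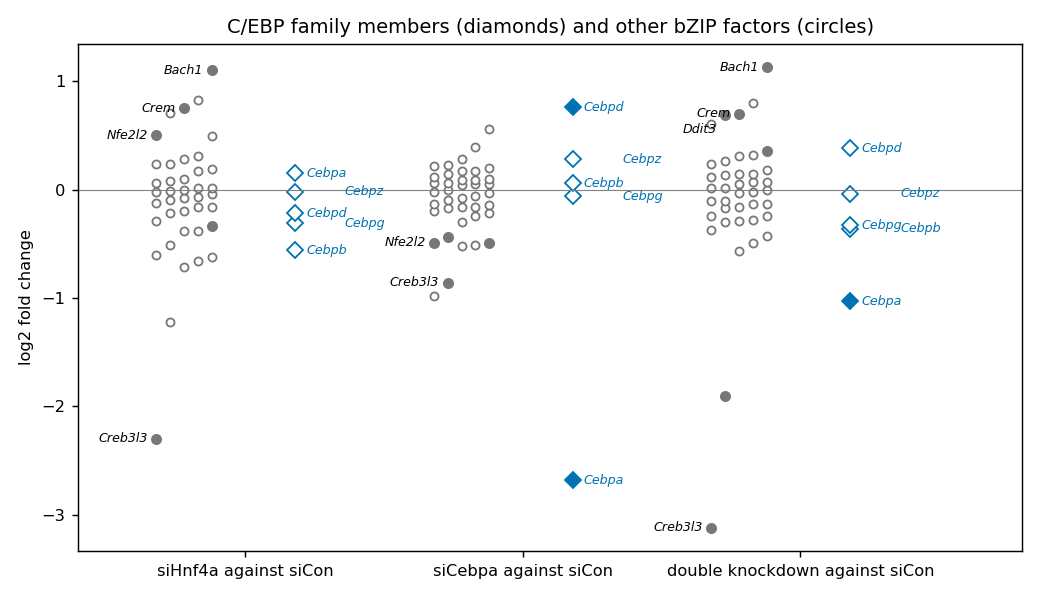
Log2 fold change against siCon (vertical axis) in the 3 knockdown groups (horizontal axis) of the 5 C/EBP members tested (diamonds) and 40 other bZIP factors (circles); filled symbols have an adjusted p under 0.05. Creb3l3 is the lowest circle in siHnf4a (−2.30) and in the double knockdown (−3.12), and Cebpa the lowest symbol in siCebpa (−2.68).

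Ddit3 (CHOP), a stress-induced relative that dimerizes with C/EBP proteins, averaged 35.6 ± 4.58 CPM in siHnf4a, 42.4 ± 5.93 in siCebpa, 46.5 ± 9.23 in the double knockdown and 28.8 ± 2.82 in siCon (SD, n = 3 each). It was called in the double knockdown (0.69 ± 0.16, edgeR adjusted p = 0.0146), and not in siHnf4a (0.31, adjusted p = 0.228) or siCebpa (0.56, adjusted p = 0.0724), where the block called both (0.0183 and 0.00182). Of the 22 genes of the amino acid stress response, in which C/EBPG and ATF4 act as partners, 1 was higher and 2 lower in siHnf4a, 2 higher and 0 lower in siCebpa, and 1 higher and 1 lower in the double knockdown (medians 0.01, 0.24 and 0.09). These are 3, 2 and 2 of 22, where 14.5%, 4.67% and 14.0% of all genes were called, and 4, 5 and 4 with the block, where 30.0%, 16.8% and 29.5% were. Slc7a11, the cystine transporter, was higher in all 3 (1.71 ± 0.27, 1.12 ± 0.27 and 1.94 ± 0.27, edgeR adjusted p = 0.00227, 0.0417 and 0.00108). Sars, seryl-tRNA synthetase, was the other called in siCebpa (0.42), and the serine synthesis genes Psat1 (−1.02) and Phgdh (−0.83) were the 2 lower in siHnf4a, with Psat1 also lower in the double knockdown (−0.72). Omitting single libraries ended the siCebpa call of Slc7a11 in 5 of 6 omissions (adjusted p up to 0.175) and of Sars in 4 (up to 0.111), that of Phgdh in siHnf4a in 4 (up to 0.0912), and in the double knockdown those of Psat1 in 4 (up to 0.125) and Ddit3 in 2 (up to 0.0652). Of 20 nucleolar ribosome assembly genes, the surroundings of Cebpz, 0 were called in siHnf4a, 1 in siCebpa (Noc2l, 0.41 ± 0.10, edgeR adjusted p = 0.0404, and up to 0.17 with the call ended in 5 of 6 omissions of a library) and 0 in the double knockdown. The block called 0, 3 and 0 of them. Over all genes the shares called were 14.5%, 4.67% and 14.0% with 1 mean per group. With the block they were 30.0%, 16.8% and 29.5%. Ncl, nucleolin, which had the most counts of the 20, was at 0.09 in siHnf4a and 0.14 in the double knockdown. At an unadjusted p under 0.05, a level with no share of all genes computed, the counts were 1, 10 and 0. DESeq2 called 0, 2 and 0 of them, and 2753, 1274 and 2683 genes in all. All 20 had a positive value in siCebpa (median 0.29 in counts and 0.14 on the TPM scale, against 0.00 and −0.12 over all genes).

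Of 24 listed regulators of C/EBP genes or proteins, 2 were higher and 2 lower in siHnf4a, 0 were called in siCebpa (2 at an unadjusted p under 0.05, 0 by DESeq2 and 2 with the block) and 0 were higher and 5 lower in the double knockdown (medians −0.05, −0.08 and −0.11). Beside Hnf4a, one of the siRNA targets (−2.09 ± 0.28 in siHnf4a and −2.68 ± 0.29 in the double knockdown), Celf1, an RNA-binding protein of C/EBP mRNAs, was lower in siHnf4a (−0.33). The interleukin-6 receptor gene Il6ra (1.15 ± 0.34, edgeR adjusted p = 0.0456) and Stat3 (0.34 ± 0.07, adjusted p = 0.0117), which carry the signal that induces Cebpb and Cebpd, were higher there. Rela, an NF-kappaB subunit and the one of the 24 with the most counts, was at 0.02 ± 0.14 in siCebpa (edgeR adjusted p = 0.948). Trib1, an adaptor that directs C/EBPA protein to degradation, was lower in the double knockdown (−0.90 ± 0.27, edgeR adjusted p = 0.0489), as were Nfkb1 (−0.61) and Foxo1 (−0.59). The calls in either direction were 4, 0 and 5 of 24 against backgrounds of 14.5%, 4.67% and 14.0%, and with the block 10, 2 and 11 against 30.0%, 16.8% and 29.5%. Omission of 1 library ended the call of Il6ra in 5 of 6 cases (adjusted p up to 0.161), Celf1 in 5 (up to 0.0967), Trib1 in 4 (up to 0.168), Nfkb1 in 5 (up to 0.11) and Foxo1 in 4 (up to 0.0797).

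Of 16 liver genes known to depend on C/EBPA, 0 were higher and 2 lower in siHnf4a, 0 were called in siCebpa and 0 were higher and 3 lower in the double knockdown. In siCebpa 2 had an unadjusted p under 0.05, DESeq2 called 1 and the block called 3, with a median of −0.54. Alb, albumin, which had the most counts of the 16, was there at 0.17 ± 0.38 (edgeR adjusted p = 0.857). Otc, the urea cycle ornithine transcarbamylase (−1.85 ± 0.36 and −2.46 ± 0.38, edgeR adjusted p = 0.0072 and 0.00186), and Gys2, liver glycogen synthase (−1.63 ± 0.46 and −2.47 ± 0.48, adjusted p = 0.0365 and 0.00695), were lower in both groups with Hnf4a siRNA. F9, coagulation factor IX, was lower in the double knockdown (−1.57 ± 0.44). Otc and Gys2 were low, and the filter on low counts was at 0.42 CPM. In siHnf4a, the double knockdown and siCon, Otc averaged 0.706, 0.463 and 2.56 CPM and Gys2 0.973, 0.540 and 3.02 CPM. On the TPM scale Otc was at −0.88 in siHnf4a and −1.05 in the double knockdown. Gys2 was at −0.47 and −1.03 there, and was not called in either. With the block 8 of the 16 were called in siHnf4a, 3 higher and 5 lower, where 30.0% of all genes were called. In siCebpa it called 0 higher and 3 lower (16.8%), and in the double knockdown 8, with 1 higher and 7 lower (29.5%). With 1 mean per group the share of all genes called lower was 7.29%, 1.72% and 7.13%. The call of Gys2 in siHnf4a was lost in 5 of 6 omissions of a library (adjusted p up to 0.137), as was that of F9 (up to 0.129).

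Of 19 acute phase genes, the classical targets of Cebpb and Cebpd, 2 were higher and 1 lower in siHnf4a, 0 were called in siCebpa (4 at an unadjusted p under 0.05, 2 by DESeq2, 4 with the block) and 0 were higher and 2 lower in the double knockdown (medians −0.18, −0.36 and −0.53). The fibrinogen genes Fga (0.98 ± 0.18, edgeR adjusted p = 0.00538) and Fgb (0.94 ± 0.22, adjusted p = 0.0184) were the 2 higher in siHnf4a. Hpx, the heme carrier hemopexin and the one of the 19 with the most counts, was lower in siHnf4a (−0.96) and in the double knockdown (−1.13) and at −0.62 ± 0.26 in siCebpa (edgeR adjusted p = 0.213), and Cp, ceruloplasmin, in the double knockdown (−0.78). The call of Hpx in siHnf4a was lost in 6 of 6 omissions of a library (adjusted p up to 0.127) and in the double knockdown in 3 (up to 0.0795), that of Fgb in 3 (up to 0.0732) and that of Cp in 2 (up to 0.0577). The 3, 0 and 2 calls of 19 stand beside 14.5%, 4.67% and 14.0% of all genes. With the block there were 7, 4 and 4, beside 30.0%, 16.8% and 29.5%.

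Among the cell type markers tested, 0 of 10 Kupffer cell and macrophage genes and 0 of 11 stellate and endothelial genes were called in any knockdown against siCon. Of the Kupffer genes 9 of 10 had a negative value in each comparison (medians −1.0, −1.21 and −1.24), Cd68 being the exception at 0.64 ± 0.90, 0.26 ± 0.90 and 0.43 ± 0.90 (edgeR adjusted p = 0.686, 0.91 and 0.799; −0.08 in siCebpa with the block), with 0, 1 and 1 at an unadjusted p under 0.05 and 3, 3 and 5 called with the block. The medians of the stellate and endothelial genes were −0.14, −0.31 and −0.32 (0, 1 and 0 at an unadjusted p under 0.05; 2, 2 and 4 with the block). DESeq2 called 0 of the Kupffer genes in each and 0, 1 and 0 of the stellate and endothelial genes, of which the one with the most counts, the collagen gene Col1a1, was at −0.64, −0.32 and −0.58. Of 4 biliary genes, 2 were lower in siHnf4a, 0 were called in siCebpa (2 at an unadjusted p under 0.05, 2 by DESeq2) and 2 were lower in the double knockdown, Krt19 (−2.69 and −2.94) and Sox9 (−1.01 and −1.58) in each. Spp1, osteopontin, which had the most counts of them, was at −1.13 ± 0.86 in siCebpa (edgeR adjusted p = 0.514). Of 8 hepatocyte markers, 2 were lower in siHnf4a, 0 called in siCebpa (1 at an unadjusted p under 0.05, 0 by DESeq2) and 3 lower in the double knockdown. Trf (−2.06 ± 0.23 and −2.17 ± 0.23, edgeR adjusted p = 0.000332 and 0.000231) and Apob (−2.09 and −2.38) were lower in both, and Apoa1 in the double knockdown (−1.33, with the call lost in 3 of 6 omissions of a library, adjusted p up to 0.0689). Trf was at −0.20 in siCebpa (edgeR adjusted p = 0.685). The share of all genes called lower was 7.29%, 1.72% and 7.13%. The block called 4, 3 and 4 of the 4 biliary genes and 4, 2 and 6 of the 8 hepatocyte markers, where it called 30.0%, 16.8% and 29.5% of all genes. In siHnf4a the calls of Krt19 and Sox9 were each lost in 3 of 6 omissions of a library (adjusted p up to 0.0691 and 0.0682). The part of other cell types in the members' values was not tested.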

How the data were processed

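RNA of 12 libraries was sequenced on a BGISEQ-500 protocol, per the labels' protocols. The deposited files hold, per gene, estimated counts and TPM made by the authors, and the submitters' processing notes name Trim Galore 0.6.4, kallisto and GRCm38.p6. No step or setting beyond these names is given in the sources used here. Of 55385 identifiers, 55144 matched the GENCODE annotation in hand and 241 did not (0.00349% of counts). The estimated counts were rounded and fitted with edgeR 4.0.16 in R 4.3.3: TMM scaling (factors 0.947 to 1.038), a filter at 0.42 CPM that kept 15090 genes and left out 40295, 1 mean per group over all 12 libraries (8 residual degrees of freedom), and adjustment over all genes. The fit with 1 mean per group was tried on simulated data that held no differences between mice. The block fit was not tried in this way.

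The mouse numbers pair libraries, since the series' design names 3 donor mice. Deviations from the group means correlated at 0.16 to 0.68 over the 18 same-mouse pairs, and 12 of 12 libraries correlated best with their own mouse. The block fit had 6 residual degrees of freedom. With 1 mean per group, p-values rest on the spread of libraries within groups, which includes differences in level between the 3 animals. With the block they rest on the spread left after those differences are taken out.

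DESeq2 1.42.0, limma 3.58.1 on log2(TPM + 1) and on log2(TPM + 0.1), other filters, RLE scaling, fits of only the groups compared and leaving out each library were alternatives. A fold change on the log2(TPM + 1) scale understates changes of low genes. The members and lists were chosen with earlier results of these data known. From each list the text names up to 4 called genes of largest change or, with none called, the gene with the most counts, and Hnf4a and Ddit3 always, and for each member the 5 genes of most similar pattern. The marker sums without Trf or Cd68 were added after seeing the data. A gene that this rule takes is not reported here. Genes overlapping or next to a member could be named. Where a symbol had more than 1 identifier, the one with the most counts was used.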

Additional observations from a re-analysis of the deposited data

Results flagged for a closer look

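Cebpa differed between the presence and the absence of Hnf4a siRNA in its response to Cebpa siRNA, with an interaction of 1.50 ± 0.18 log2 units (edgeR adjusted p = 0.0131, and 0.00286 with mouse as a block). It was at 47.9 to 63.0 TPM in the double knockdown, 13.7 to 17.5 TPM in siCebpa, 116 to 138 TPM in siHnf4a and 103 to 126 TPM in siCon. In each of the 3 mice the double knockdown lay above siCebpa and below siCon. The labels do not state the amount of Cebpa siRNA in each group, and its part in the difference was not tested.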

How the results depend on the processing

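The number of members called moved with the fit. With the replicate block, which compares within mice, it was 2 in siHnf4a against siCon (0 without the block), 3 in the double knockdown against siCon (1), 4 in the double knockdown against siCebpa (1) and 5 in siHnf4a against siCebpa (2), and it changed no other count. In the same order the block called 30.0%, 29.5%, 27.3% and 31.2% of all genes. Without the block 14.5%, 14.0%, 13.0% and 16.2% of all genes were called. In siCebpa against siCon the number of members called was 1, not 2, in a fit of only the groups compared and in the 3 TPM fits, where Cebpd had an adjusted p of 0.053 and of 0.0621 to 0.138. In the double knockdown against siHnf4a it was 0, not 1, in the fit of only those groups. Leaving out 1 library gave 1 to 2 members against siCon in both groups with Cebpa siRNA, 0 to 1 in the double knockdown against siHnf4a, 1 to 2 against siCebpa, and 0 to 1 for the interaction. Cebpb in siHnf4a against siCebpa was also called without siHnf4a replicate 3 and by DESeq2.

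Shares of the family in CPM, which favours long transcripts, were 30.5%, 3.97%, 14.6% and 22.9% for Cebpa and 38.1%, 54.4%, 46.8% and 47.4% for Cebpb in siHnf4a, siCebpa, the double knockdown and siCon. Values near 0 changed sign on the TPM scale: Cebpb in siCebpa against siCon to −0.10, Cebpz to 0.01 in siHnf4a and 0.03 in the double knockdown against siCon and 0.03 in the double knockdown against siHnf4a, the Cebpg interaction to −0.06, and in siCebpa against siCon Alb to −0.07, Rela to −0.11 and Cd68 to −0.27 (−0.08 with the replicate block). TPM moved the median of all genes in siCebpa to −0.12 with a pseudocount of 1 and −0.14 with 0.1. Leaving out 1 library gave, among values that changed sign, −0.09 to 0.13 (Cebpz, siHnf4a), −0.13 to 0.11 (Cebpz, double knockdown), −0.06 to 0.17 (Cebpb, siCebpa) and −0.12 to 0.02 (Cebpg, siCebpa) against siCon. Against siHnf4a the double knockdown then gave −0.11 to 0.09 for Cebpz, −0.04 to 0.40 for Cebpb and −0.11 to 0.08 for Cebpg, and the interactions of Cebpb and Cebpg ran from −0.08 to 0.35 and from −0.05 to 0.16. Among uncalled list genes against siCon, Cd68 ran from −0.36 to 1.47 (siHnf4a), −1.28 to 1.08 (siCebpa) and −0.48 to 1.26 (double knockdown), and in siCebpa Rela from −0.15 to 0.10, Alb from −0.31 to 0.38 and Col1a1 from −0.61 to 0.08. Cebpa against siCon and between the single knockdowns kept its direction and side of the threshold in all of these. The causes of these changes were not tested. With 3 mice per group, an exact permutation test on 1 value that does not pair the mice cannot go below p = 0.1.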
